A study of Mus musculus with 9 samples.

Results

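Transcripts of GFP+ cells that carried the PAX3-FKHR fusion were compared with those of GFP- cells from the same organ, the forelimb bud of the mouse embryo at E10.5 (embryonic day). The comparison took the 3 arrays titled for PAX3-FKHR and the 3 titled for GFP- cells, 6 of the 9 arrays of the series, and tested 45037 probe sets, all but the 64 array controls. PAX3-FKHR GFP+ cells came from Pax3PAX3-FKHR/GFP embryos. In these, the conditional PAX3-FKHR-IRESnlacZ allele had been opened by PGK-Cre, a Cre transgene under a promoter that is active in most cell types, and the other Pax3 allele held GFP, so that neither allele encoded wild-type Pax3. GFP- cells lay outside the GFP gate. Their labels give no genotype. The study's text compares them as cells of Pax3GFP/+ embryos, and its array methods also list a Pax3+/+ group without saying which cells it is. Under either genotype their embryos differ from Pax3PAX3-FKHR/GFP embryos, so the effects of the gate and of the embryo's genotype cannot be told apart. GFP+ cells of Pax3GFP/+ embryos (control GFP+, 3 arrays), which keep a wild-type Pax3 allele, entered no test against GFP- cells. Their values stand beside the others, and a separate fit gave the difference between PAX3-FKHR GFP+ and control GFP+ cells. The study gives a mixed C57BL6/DBA2 background for its targeted Pax3 lines and states none for the PGK-Cre line. Each sample was sorted from pooled forelimb buds, and n = 3 arrays for every group. The study describes the arrays of a group as biological replicates.

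Pax3 is a paired and homeodomain transcription factor of the dermomyotome, the dorsal epithelium of the somite. Cells that express it leave the hypaxial lip, migrate into the limb bud under control of the receptor Met and the homeobox factor Lbx1, and then switch on the myogenic factors Myf5, Myod1 and Myog. PAX3-FKHR, found in alveolar rhabdomyosarcoma, joins the DNA-binding domains of PAX3 to the activation domain of FKHR, which is now called FOXO1. Limb bud cells that never expressed Pax3 are mostly mesenchyme of the lateral plate, with ectoderm, endothelium and blood. GFP outlasts the transcription that made it, and the Pax3GFP allele is active throughout the epithelial somite, so that a GFP+ gate can also hold cells of other somite derivatives.

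The upstream sequences of Dbx1, Vgll3 and Myf5 are shown because these are lead genes of the fusion-carrying cells (Dbx1, Vgll3, Tfap2c and Myf5, chosen with results of these arrays known). Of the 4, these 3 matched an entry of the promoter table used here. Each is the 250 bases before the transcription start in RefSeq (mouse build GRCm38.p6), 5′ to 3′ on the strand of the gene. The Dbx1 stretch is chr7:49636836-49637085 on the minus strand, the Vgll3 stretch chr16:65814939-65815188 on the plus strand, and the Myf5 stretch chr10:107486135-107486384 on the minus strand. Capitals mark the letters ATTA, the core that homeodomains bind, and GTTCC, a core of paired domain sites, on either strand (TAAT and GGAAC when on the opposite strand).
Dbx1: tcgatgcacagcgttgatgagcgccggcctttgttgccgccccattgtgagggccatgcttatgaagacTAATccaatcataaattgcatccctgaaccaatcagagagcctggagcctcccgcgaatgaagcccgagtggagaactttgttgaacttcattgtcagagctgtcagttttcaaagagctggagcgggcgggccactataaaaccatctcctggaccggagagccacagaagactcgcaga
Vgll3: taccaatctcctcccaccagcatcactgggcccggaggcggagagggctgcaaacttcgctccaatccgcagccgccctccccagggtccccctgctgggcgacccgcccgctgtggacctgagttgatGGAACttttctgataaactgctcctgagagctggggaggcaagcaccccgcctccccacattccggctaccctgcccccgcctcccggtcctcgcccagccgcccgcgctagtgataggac
Myf5: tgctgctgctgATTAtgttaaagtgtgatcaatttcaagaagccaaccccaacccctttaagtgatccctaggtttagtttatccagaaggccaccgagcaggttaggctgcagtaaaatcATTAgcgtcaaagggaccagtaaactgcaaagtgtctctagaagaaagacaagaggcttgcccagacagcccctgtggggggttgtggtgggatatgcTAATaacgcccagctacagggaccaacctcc
Myf5 held 3 ATTA matches, Dbx1 held 1 and Vgll3 held 1 GTTCC match, while the E-box letters CAGCTG, which the myogenic factors bind, were in none of the 3. Of 32851 promoters of the same length, a set that left out 1 chromosome, 54.9% held ATTA, 40.3% GTTCC and 13% CAGCTG. The matches are thus common and mark no site.

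The 6 arrays had medians between 5.083 and 5.118 on the log2 scale, and their first principal component held 63.6% of the variance. GFP- replicate 3 had the lowest array weight of the 6 (0.561, against 0.908 and 1.6 for the other GFP- arrays) and stood apart in genes of beating heart. Tnnt2 (cardiac troponin T) read 8.11 on it and 4.31 and 4.24 on the other GFP- arrays, Actc1 (cardiac alpha actin) 9.03 against 4.79 and 5.18, and Myl7 (atrial myosin light chain) 6.82 against 4.75 and 4.86. The mean level of 23 heart genes was 5.46 there and 4.41 to 5.01 on the other 5 arrays. Embryonic globin varied in the same group: Hba-x read 6.76, 12.88 and 13.48 on GFP- replicates 1, 2 and 3, and 8.36, 9.86 and 7.31 with the fusion. Results that rest on these arrays are given with and without them.

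In PAX3-FKHR GFP+ cells, 1390 probe sets (3.09%) were called higher and 2013 (4.47%) lower than in GFP- cells, at a Benjamini-Hochberg adjusted p under 0.05 in limma and a log2 fold change of at least 0.5. Taking each gene by its brightest probe set, 770 of 18193 genes (4.23%) were higher and 556 (3.06%) lower, and the median log2 fold change over all genes was 0.05. The 2 groups of arrays did not overlap for 27.5% of probe sets and 27.9% of genes. Among called genes whose arrays did not overlap, the 10 largest increases were Myf5, Dbx1, C1qtnf3, Car3, Vgll3, Megf10, Sowahb, Tnnt1, Myog and Scn3b, and the 10 largest decreases Hoxd10, Hoxd13, Zic5, Frzb, Mpo, Lhx9, Wif1, Tbx2, Mab21l2 and Osr1. A lower level in sorted cells may mean fewer cells of a type or less RNA per cell, which cannot be told apart on these arrays.

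Of the 4 lead genes, 3 separated the fusion-carrying cells from GFP- cells. Myf5, the first myogenic factor of the embryo, read 10.11, 10.13 and 9.74 with the fusion and 2.66, 3.19 and 4.13 in GFP- cells, a log2 fold change of 6.67 ± 0.34 (SE; adjusted p = 4.92e-05) and the largest increase among all called genes. Dbx1, a homeobox factor best known from interneuron progenitors of the neural tube, read 10.81, 10.93 and 11.17 against 4.27, 4.56 and 5.81 (6.10 ± 0.36, adjusted p = 9.77e-05). Vgll3, a cofactor of TEAD transcription factors, read 8.96, 9.26 and 9.45 against 3.30, 3.81 and 4.08 (5.49 ± 0.22, adjusted p = 3.28e-05). For all 3, the lowest array with the fusion lay far above the highest GFP- array. Tfap2c, the AP-2 gamma factor of ectoderm and neural crest, did not separate the groups. It read 8.88, 8.78 and 8.89 with the fusion and 7.93, 8.07 and 9.02 in GFP- cells, the arrays overlapped, and the log2 fold change of 0.51 ± 0.27 did not pass the test (adjusted p = 0.298). None of its 3 probe sets passed. Without GFP- replicate 3 it was called higher (adjusted p = 0.0119).

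The same genes fell into other orders once control GFP+ cells were set beside them. Dbx1 was intermediate in control cells (8.65, 8.45 and 7.79), as was Vgll3 (7.21, 7.02 and 6.63), and both differed between the GFP+ groups, by 2.67 for Dbx1 (adjusted p = 0.00687) and 2.27 for Vgll3 (adjusted p = 0.00784). Myf5 was already high in control cells (9.10, 9.19 and 8.92), and its further difference of 0.93 did not pass (95% interval 0.57 to 1.28, adjusted p = 0.0872). Tfap2c was lowest of all in control GFP+ cells, at 6.81, 6.81 and 6.47, so that its level with the fusion was higher by 2.15 (adjusted p = 0.00371) while it was not called different from GFP- cells. Called shares of the whole array in this second fit were 0.182% of probe sets higher and 0.0488% lower (0.302% and 0.0934% of genes). Both fits use the same PAX3-FKHR arrays, so their values are given side by side and nothing was counted across them.

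**Figure D1:**
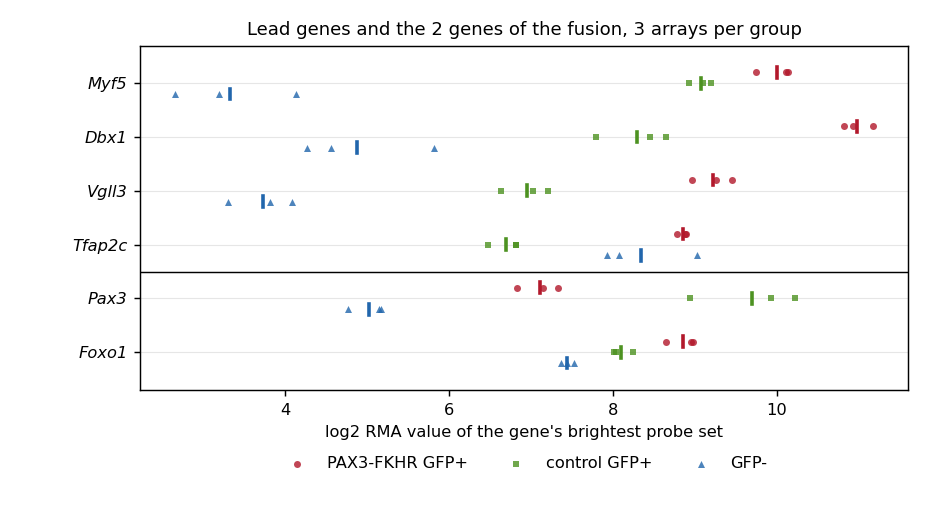
Log2 RMA value (x axis) of the 4 lead genes and of the genes that the fusion joins, 1 point per array and a bar at each group's mean (3 arrays per group). Myf5, Dbx1 and Vgll3 of PAX3-FKHR GFP+ cells lie far above GFP- cells, Tfap2c overlaps with GFP- cells, and Pax3 lies between GFP- and control GFP+ cells.

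The genes that the fusion joins were both higher than in GFP- cells. Pax3 (its brightest probe set) read 7.15, 6.83 and 7.33 with the fusion, 5.17, 5.14 and 4.77 in GFP- cells and 9.92, 8.94 and 10.22 in control GFP+ cells. It was thus 2.08 ± 0.17 above GFP- cells (adjusted p = 4.91e-04) and 2.59 on the log2 scale short of the control level (log2 fold change -2.59, adjusted p = 0.0299). Another of its probe sets read 7.12, 7.12 and 7.14 with the fusion, 3.03 above GFP- cells (adjusted p = 2.71e-05) and different from control by -2.83 (adjusted p = 0.00477). The values place Pax3 signal between the other groups on all 3 of its probe sets. The study's text takes the mouse gene as not transcribed in Pax3PAX3-FKHR/GFP embryos. What the signal above GFP- cells reads in them was not tested. Foxo1, the mouse gene of FKHR, read 8.64, 8.98 and 8.95 against 7.37, 7.52 and 7.44 (1.41 ± 0.14, adjusted p = 0.00103), and 3 of its 4 probe sets were higher. It did not pass the test against control GFP+ cells (0.76, 95% interval 0.41 to 1.11, adjusted p = 0.165).

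Regulators of limb muscle progenitors were the list with the highest levels over GFP- cells. Of 38 listed genes 36 were measured, of which 26 were called higher, none lower and 10 neither, against the 4.23% of all genes called higher. Their median log2 fold change was 2.17, beside 0.05 over all genes. The mean level of the list was 7.93, 8.15 and 7.89 on the arrays with the fusion, 5.49, 5.54 and 5.76 in GFP- cells and 7.79, 7.87 and 7.55 in control GFP+ cells. The fusion-carrying cells thus lay above GFP- cells for most of the program and near the control cells on the list mean, with a median difference from control of 0.17. Against control GFP+ cells, 4 of the 36 were called higher and 1 lower (0.302% and 0.0934% of all genes were). The list was chosen with earlier results of these data known. It holds lead genes, factors that the study picked from these arrays, and Pax3, whose locus carries the GFP. Its counts therefore do not stand as independent evidence of a direction.

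Factors and receptors of migrating progenitors were among the clearest. Lbx1, required for lateral migration in the limb, read 9.24, 9.50 and 9.64 with the fusion and 5.14, 4.05 and 5.11 in GFP- cells (4.69 ± 0.29, adjusted p = 1.15e-04). Met, the receptor that releases progenitors from the somite, read 10.31, 10.54 and 10.41 against 5.75, 6.04 and 6.69 (4.26 ± 0.23, adjusted p = 6.23e-05). Neither passed the test against control cells, where the intervals of the difference were -0.75 to 0.08 for Lbx1 and -0.54 to 0.06 for Met. The chemokine receptor Cxcr4, which also guides these cells, was higher than in GFP- cells by 1.91 (adjusted p = 0.00402), and its difference from control, -0.86, did not pass (95% interval -1.56 to -0.17, adjusted p = 0.643). Msc (musculin) was higher by 3.30, Meox1 by 2.21, Tbx1 by 1.84 and Dmrt2, a dermomyotome factor, by 2.80. Sim1 and Sim2, bHLH-PAS factors, were higher by 2.14 and 2.65. For both, every array with the fusion lay below every control array. Their differences from control, -0.79 and -1.66, did not pass (95% intervals -1.21 to -0.37 and -2.5 to -0.82, adjusted p = 0.264 and 0.227). Meox2, the partner of Meox1 that limb mesenchyme also expresses, read 8.76, 8.46 and 8.52 against 8.39, 8.61 and 8.77, so that the arrays overlapped (-0.01, adjusted p = 0.981).

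Eya proteins are coactivators of homeobox factors such as Six4, acting upstream of the myogenic genes. Eya1 read 10.30, 10.35 and 10.03 with the fusion against 5.19, 5.03 and 5.93 in GFP- cells (4.85 ± 0.24, adjusted p = 4.92e-05), and Eya2 was higher by 3.69 (adjusted p = 5.85e-05). Neither passed the test against control cells (95% intervals -0.32 to 0.51 for Eya1 and -0.19 to 0.89 for Eya2). Six4, which is broadly expressed, read 8.53, 8.64 and 8.33 against 7.95, 7.87 and 8.13 and did not pass (0.52, adjusted p = 0.0622). Eya4 (0.08, adjusted p = 0.856) and Six5 (-0.41, adjusted p = 0.207) did not pass either. Of the Dach corepressors, Dach1 did not pass (-0.24, adjusted p = 0.424) and Dach2 was higher by 1.15 (adjusted p = 0.0049). Vgll2, another TEAD cofactor of skeletal muscle, was higher by 3.39 (adjusted p = 4.96e-05).

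All 4 myogenic bHLH factors were called higher. Besides Myf5, Myod1 read 8.57, 9.24 and 8.72 against 4.35, 4.59 and 4.13 (4.49 ± 0.20, adjusted p = 3.61e-05), and Myog, which starts terminal differentiation, 9.76, 10.09 and 8.88 against 4.70, 4.38 and 4.82 (4.95 ± 0.29, adjusted p = 1.00e-04). Myf6 was higher by 0.84 (adjusted p = 0.00729), and control cells read 5.20, 5.28 and 6.15 against 4.79, 4.84 and 4.74 with the fusion. In control cells Myod1 and Myog were uneven, with replicate 3 at 6.38 and 7.45 and the other arrays at 8.29 to 9.17, and their differences from control had wide intervals that included 0 (-0.01 to 2.33 and -0.08 to 2.16). Megf10, a receptor of muscle progenitor proliferation, was higher than in GFP- cells by 5.36 (adjusted p = 5.10e-04), and Fgfr4, the FGF receptor of myogenic cells, by 3.64 (adjusted p = 9.15e-04). Mef2c, a MADS-box partner of the myogenic factors, was higher by 1.84 (adjusted p = 0.0224). That call was lost without any 1 of 4 of the 6 arrays (PAX3-FKHR GFP+ replicates 1 and 2, GFP- replicates 1 and 2), with adjusted p from 0.0761 to 0.101.

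**Figure D2:**
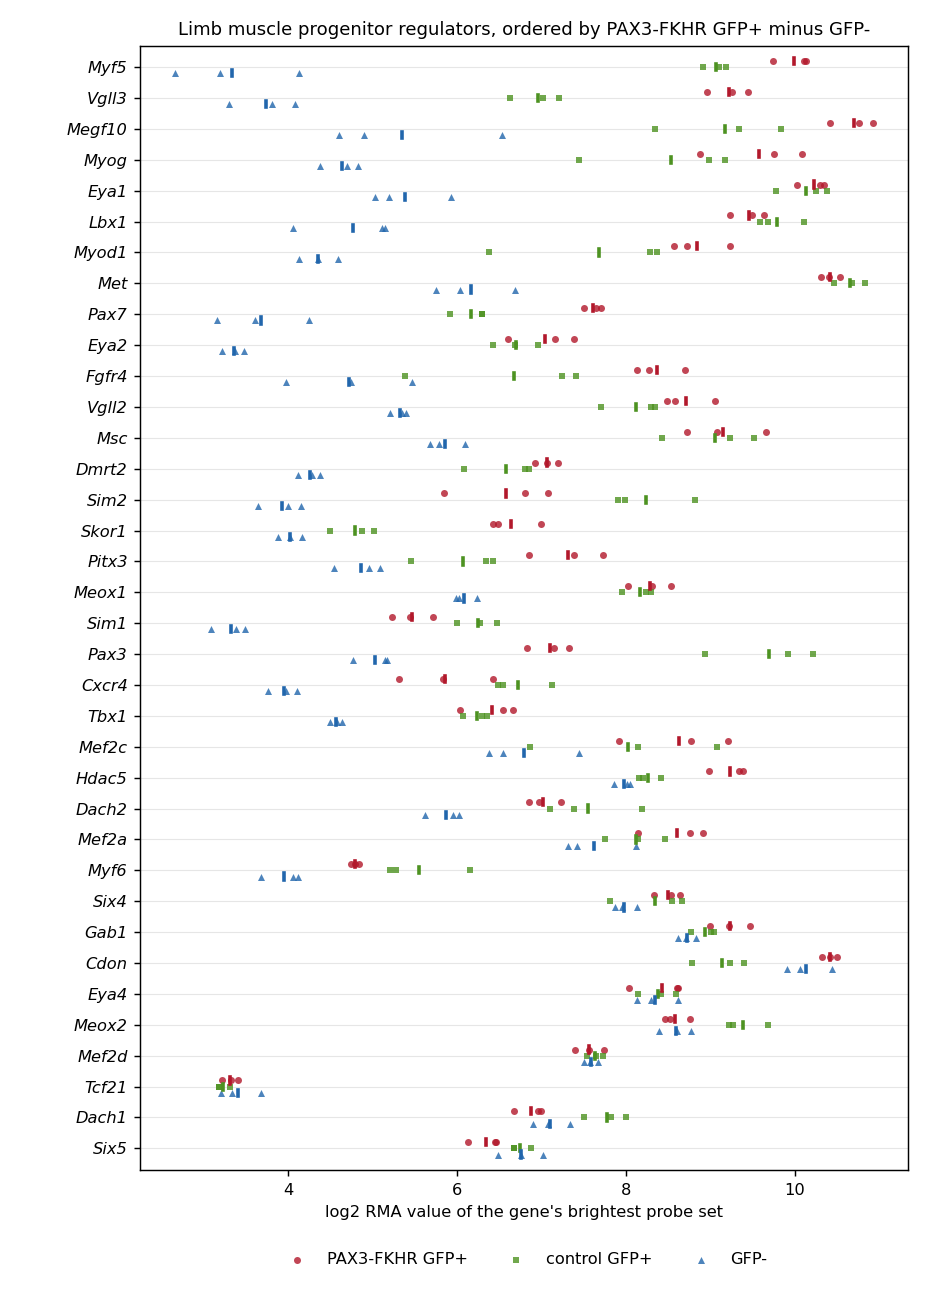
Log2 RMA value (x axis) of the 36 measured regulators of limb muscle progenitors, ordered by PAX3-FKHR GFP+ minus GFP-, 1 point per array and a bar at the mean of 3 arrays per group. The fusion-carrying and GFP- arrays do not overlap for 30 of the 36 genes, and for 27.9% of all genes.

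Muscle differentiation genes were raised as well, at lower levels. Of 59 listed genes 58 were measured, with 34 called higher, none lower and 24 neither (4.23% and 3.06% of all genes were higher and lower), and a median of 1.18. None of the 58 was called in either direction against control GFP+ cells, a fit that called only 0.302% of all genes higher and 0.0934% lower. That does not place the list at the control level. Its mean was 6.45, 6.51 and 6.23 with the fusion and 6.14, 6.17 and 5.7 in control, and the median difference from control was 0.3. Tnnt1, slow troponin T, read 10.43, 10.73 and 10.35 with the fusion against 5.37, 5.36 and 5.56 in GFP- cells (5.07 ± 0.15, adjusted p = 2.23e-05). Myh3, the embryonic myosin heavy chain, read 9.28, 9.07 and 8.57 against 4.53, 4.22 and 4.79 (4.46 ± 0.22, adjusted p = 4.92e-05). Both sets of arrays lay far apart, as did those of Actn3 (sarcomeric actinin, 3.46), Cdh15 (M-cadherin, 3.46), Tpm1 (tropomyosin, 2.71), Myl1 (2.49), Des (desmin, 2.18) and Mylpf (fast myosin light chain, 2.16). Of the acetylcholine receptor, Chrnb1 was higher by 3.14, Chrng by 1.40 and Chrna1 by 1.14 (adjusted p = 0.0208 for Chrna1). Chrnd did not pass (0.25, adjusted p = 0.299). Mymk, the membrane protein of myoblast fusion, was higher by 1.20 (adjusted p = 0.0139), a call lost without PAX3-FKHR GFP+ replicate 2, GFP- replicate 1 or GFP- replicate 2 (adjusted p 0.0562 to 0.0691).

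Genes that skeletal and heart muscle share were high on GFP- replicate 3 as well. Actc1 read 10.86, 10.86 and 10.45 with the fusion against 4.79, 5.18 and 9.03 (4.39 ± 0.97, adjusted p = 0.0311), and Ttn (titin) 8.87, 8.74 and 8.33 against 4.33, 4.22 and 7.47 (3.31 ± 0.77, adjusted p = 0.0381). Both calls were lost without any 1 of the 5 other arrays (adjusted p 0.0928 to 0.124 for Actc1 and 0.0996 to 0.136 for Ttn), and both were kept without GFP- replicate 3. Tnnt2 read 8.41, 8.14 and 7.32 against 4.31, 4.24 and 8.11 and was not called (2.40, adjusted p = 0.175). Without GFP- replicate 3 it was called higher (adjusted p = 0.00195).

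Some genes were above both other groups. Pax7, the paralogue of Pax3 that marks later muscle progenitors, read 7.50, 7.70 and 7.65 with the fusion, 6.29, 6.29 and 5.92 in control cells and 3.16, 3.61 and 4.25 in GFP- cells. It was 3.94 above GFP- cells (adjusted p = 1.28e-04) and 1.45 above control (adjusted p = 0.0189). Skor1, a corepressor first described with Lbx1, was 2.61 above GFP- cells and 1.84 above control (adjusted p = 0.021). Prdm8, a neural histone methyltransferase family member, read 5.20, 5.68 and 5.72, against 4.14, 3.87 and 3.75 in control and 3.66, 3.58 and 3.86 in GFP- cells. It was thus close to the GFP- level in control cells, and 1.61 higher with the fusion (adjusted p = 0.0195). Tcerg1l behaved in the same way, at 8.17, 8.60 and 8.32 with the fusion, 6.70, 6.68 and 6.16 in control and 6.11, 5.85 and 5.98 in GFP- cells (2.39 above GFP-, adjusted p = 1.35e-04; 1.85 above control, adjusted p = 0.0187). Scn3b, a sodium channel subunit, had its control arrays midway, at 3.30 to 3.91 in GFP- cells, 5.84 to 6.27 in control and 8.30 to 8.69 with the fusion.

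Among genes named after their values were seen, 4 more had this pattern. Entpd3, an ectonucleotidase, read 6.75, 7.05 and 6.75 with the fusion, 4.54, 4.21 and 4.17 in control and 3.91, 3.75 and 3.81 in GFP- cells (3.03 and 2.55 above them, adjusted p = 3.28e-05 and 0.0021). Tenm2, a teneurin, read 8.23, 8.62 and 8.29, with control (5.90, 5.59 and 6.06) and GFP- arrays (6.06, 6.0 and 5.83) at one level. Coch (cochlin) was 4.51 above GFP- cells and 2.72 above control, and Pkp2 (plakophilin 2, a desmosomal protein) 4.19 and 1.84 above them.

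Other genes differed from control cells but not from GFP- cells. With the fusion, Cdon, a cell-surface promoter of myogenesis that limb mesenchyme also expresses, averaged 10.42 ± 0.08 (SD) against 9.91, 10.06 and 10.44 in GFP- cells (0.28, adjusted p = 0.309). Control GFP+ cells read 9.23, 9.40 and 8.78, lower by 1.28 (adjusted p = 0.0435). Fgf8, the ligand of the apical ectodermal ridge, showed the same order at low levels, 5.60, 5.64 and 5.99 with the fusion, 5.18, 5.58 and 5.41 in GFP- cells and 4.55 to 4.65 in control (1.14 above control, adjusted p = 0.0298). For Tfap2c and Cdon the fusion-carrying and GFP- arrays overlapped, for Fgf8 they lay next to each other, and for all 3 genes the control arrays were the lowest.

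Other genes were below control GFP+ cells. Zic1, a zinc finger factor of dorsal somite and neural tube, read 4.90, 4.74 and 4.18 with the fusion, 6.72, 6.27 and 7.04 in control and 2.92, 3.14 and 2.51 in GFP- cells. It stayed 1.75 above GFP- cells (adjusted p = 0.00267) and fell by 2.07 on the log2 scale from control (adjusted p = 0.0287). Foxc2, a factor of paraxial mesoderm and sclerotome, read 5.27, 5.92 and 6.06 against 7.30, 7.47 and 7.47 in control and 5.47, 5.28 and 4.86 in GFP- cells. Its difference from control was -1.66 (adjusted p = 0.0365), and that from GFP- cells, 0.55, did not pass (adjusted p = 0.213). Nr0b1, an orphan nuclear receptor, and Tmem30b, a flippase subunit of epithelia, were below control by 1.32 and 2.83 (log2 fold changes -1.32 and -2.83, adjusted p = 0.0134 and 0.00485). Neither passed against GFP- cells (-0.29 and -0.78, adjusted p = 0.146 and 0.0832). Hoxb5os and Tacr3, named after their values were seen, were also below control. Hoxb5os, a transcript antisense to Hoxb5, read 7.84, 7.40 and 7.71 with the fusion, 7.60, 7.68 and 7.14 in GFP- cells and 10.07, 10.11 and 11.57 in control (-2.93 against control, adjusted p = 0.0382). Tacr3, a tachykinin receptor, read 5.49, 5.35 and 5.38 with the fusion, between 4.32, 4.54 and 4.41 in GFP- cells and 7.11, 7.43 and 7.65 in control. Whether the Hoxb5os probe set also reads overlapping Hoxb transcripts was not tested.

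**Figure D3:**
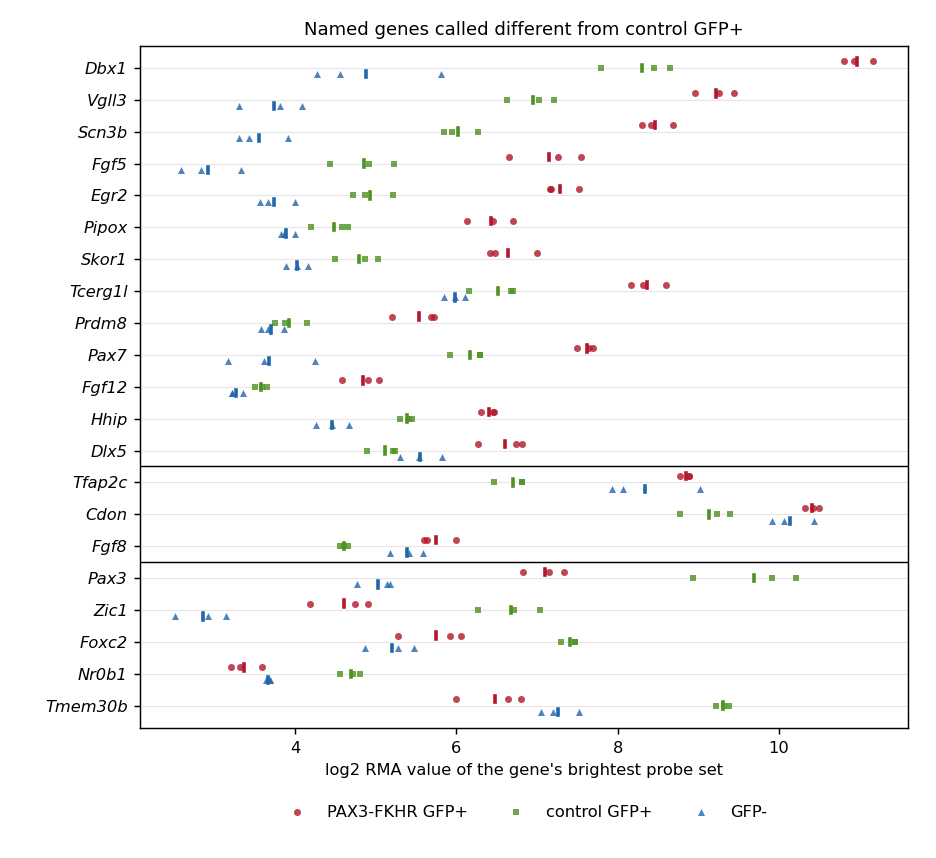
Log2 RMA value (x axis) of named genes that were called different between PAX3-FKHR GFP+ and control GFP+ cells, 1 point per array and a bar at each mean of 3 arrays. The upper block holds genes above both other groups, the middle block genes above control but not called against GFP- cells (Tfap2c, Cdon, Fgf8), and the lower block genes below control.

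Limb mesenchyme genes were lower in fusion-carrying cells. Of 48 listed genes 47 were measured, with 30 called lower (3.06% of all genes were), 1 higher and 16 neither, and a median of -1.50. The mean level of the list was 7.28, 7.05 and 7.14 with the fusion against 8.55, 8.46 and 8.16 in GFP- cells, and 7.26, 7.13 and 7.27 in control. Prrx1, the homeobox factor of early limb mesenchyme, read 9.70, 8.79 and 8.78 against 11.12, 11.31 and 10.89 (-2.02 ± 0.25, adjusted p = 0.00304), and 5 of its 6 probe sets were lower. Tbx5, which defines the forelimb field, read 7.66, 7.33 and 7.36 against 8.98, 9.04 and 9.29 (-1.65 ± 0.15, adjusted p = 7.26e-04). Groups did not overlap for either gene. Tbx4, the paralogue of Tbx5 best known from the hindlimb, read 4.50, 4.40 and 4.77 with the fusion against 7.03, 6.61 and 6.25 in GFP- cells (-2.07, adjusted p = 9.92e-04), with 1 of its 2 probe sets called lower. Pitx1, a homeobox factor of the hindlimb, read 4.88, 4.74 and 4.85 in GFP- cells, below the array medians.

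Patterning factors of several limb axes were lower. Hand2, posterior, was lower by 2.37 (log2 fold change -2.37, adjusted p = 0.00186), with 1 of its 3 probe sets called. Lmx1b, dorsal, changed by -2.09 and Msx1 and Msx2, distal, by -2.45 and -2.10. Of the proximal and growth-related factors, Shox2 changed by -2.06, Emx2 by -1.77 and Tbx18 by -1.89. Lhx2 and Lhx9, LIM homeobox factors of distal mesenchyme, changed by -2.47 and -2.73, and Prrx2 by -2.46. Pdgfra, the receptor that marks mesenchyme, read 10.36, 9.76 and 9.63 against 11.27, 11.46 and 11.55 (-1.51, adjusted p = 0.0032). Cyp26b1, which degrades retinoic acid in the distal limb, changed by -2.05 (adjusted p = 0.00382). Twist1 changed by -1.50 (adjusted p = 0.0267), a call lost without any 1 of 4 arrays (PAX3-FKHR GFP+ replicates 1 and 2, GFP- replicates 1 and 2; adjusted p 0.0542 to 0.106). For Fgf10, Gli3 and Meis2 the arrays of both groups overlapped. Fgf10, the ligand that keeps the ridge active, read 5.07, 5.17 and 5.12 against 5.08, 5.27 and 5.0, Gli3 9.79, 9.85 and 9.79 against 9.97, 9.90 and 9.78, and Meis2 9.99, 9.76 and 9.72 against 9.59, 9.77 and 9.81.

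Hhip, the decoy receptor of Hedgehog, was the exception among the mesenchyme genes. It read 6.46, 6.30 and 6.45 with the fusion against 4.46, 4.66 and 4.26 in GFP- cells (1.94 ± 0.13, adjusted p = 1.69e-04), on all 4 of its probe sets, and was 1.02 above control (adjusted p = 0.0299). Ptch1, the Hedgehog receptor and target, went the other way (-0.61, adjusted p = 0.0205), a call lost without PAX3-FKHR GFP+ replicates 2 or 3 or GFP- replicates 1 or 3 (adjusted p 0.0508 to 0.0679). Osr1 (Odd-skipped related 1), a factor of lateral and intermediate mesoderm and of connective tissue, read 4.37, 4.62 and 4.41 with the fusion and 7.38, 7.21 and 6.23 in GFP- cells (-2.48 ± 0.28, adjusted p = 0.00186). Control cells read 6.50, 5.82 and 7.89. The fusion arrays thus lay below every other array, but the difference from control, -2.27, did not pass (95% interval -3.33 to -1.22, adjusted p = 0.172).

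Hox genes set the position of cells along the body and, for the 5′ Hoxa and Hoxd genes, along the limb. Of 39 listed genes 33 were measured, of which 9 were called lower and none higher (3.06% and 4.23% of all genes were), with a median of -0.38. Hoxd10 had the largest decrease of the called genes, at 6.12, 5.54 and 5.48 with the fusion against 9.60, 9.10 and 9.19 in GFP- cells (-3.58 ± 0.21, adjusted p = 1.01e-04). Hoxd13 read 7.74, 7.06 and 5.82 against 9.88, 10.01 and 9.79 (-3.02 ± 0.41, adjusted p = 0.00471), although only 1 of its 2 probe sets was called. All 6 measured genes from Hoxd8 to Hoxd13 were lower, with Hoxd9 at -2.12, Hoxd11 at -1.62, Hoxd8 at -1.34 and Hoxd12 at -0.64. The Hoxd12 call was lost without PAX3-FKHR GFP+ replicates 1 or 3 or GFP- replicates 1 or 2 (adjusted p 0.0596 to 0.0695).

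In the Hoxa cluster, Hoxa5 (-1.10), Hoxa9 (-1.60) and Hoxa10 (-1.76) were called lower. No Hoxb or Hoxc gene was called in either direction. Hoxa9 read 11.21, 10.40 and 10.46 with the fusion, 11.51, 11.38 and 11.76 in control and 11.99, 12.34 and 12.53 in GFP- cells, and Hoxa10 8.25, 7.94 and 7.80, then 9.04, 9.06 and 8.92, then 9.95, 9.56 and 9.76. For both genes the fusion arrays were the lowest and the control arrays intermediate. Their differences from control, -0.86 and -1.01, did not pass (adjusted p = 0.358 and 0.069). The mean over the Hox list was 6.18, 6.04 and 5.98 with the fusion, 6.64, 6.52 and 6.63 in control and 6.73, 6.67 and 6.62 in GFP- cells. Hoxb1, an anterior gene, read 3.55, 2.91 and 3.38 with the fusion, near the GFP- level of 3.84, 3.93 and 3.72 (-0.55, adjusted p = 0.0757), with 5.28, 4.92 and 6.15 in control (-2.17, adjusted p = 0.0566). It was called lower than in GFP- cells without PAX3-FKHR GFP+ replicate 1 (adjusted p = 0.0477).

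**Figure D4:**
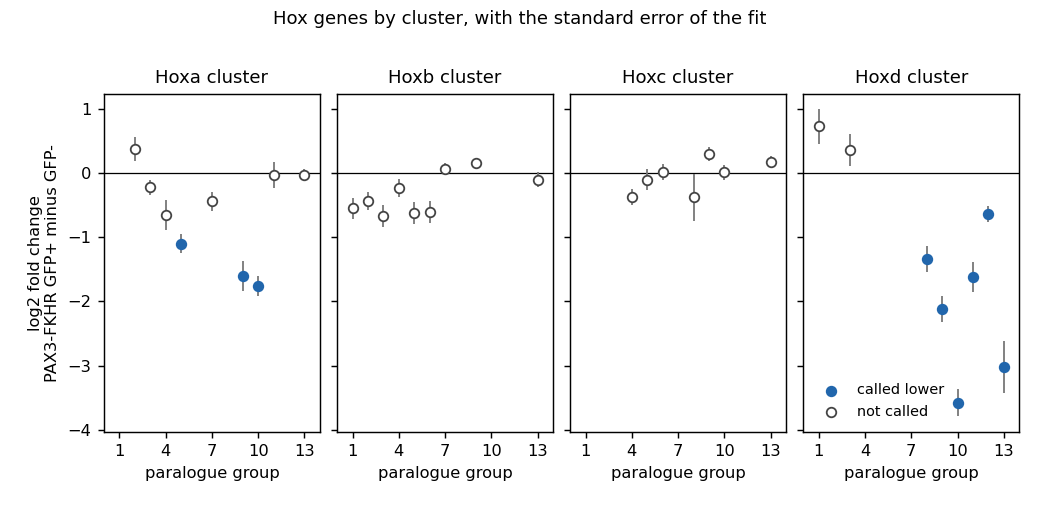
Log2 fold change, PAX3-FKHR GFP+ minus GFP- (y axis, bars are the standard error of the fit on 3 and 3 arrays), of the measured Hox genes by paralogue group (x axis) in the 4 clusters. Called genes, all lower, are Hoxd8 to Hoxd13, Hoxa5, Hoxa9 and Hoxa10, while no Hoxb or Hoxc gene was called.

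A minority of neural factors were called higher. Of 42 listed neural progenitor factors 35 were measured, with 6 called higher, 1 lower and 28 neither (4.23% and 3.06% of all genes were higher and lower), and a median of 0.20. Apart from Dbx1, Zic1 and Prdm8, the genes called higher were Sox2, Olig1 and Olig3. Most of the list was at low levels, with 27 of the 35 factors at a mean under the median of the 6 arrays. Among probe sets with a mean of at least 5, only 1 factor was called higher. Sox2, a factor of neural progenitors and early crest, read 5.42, 6.0 and 3.90 with the fusion, 7.08, 7.14 and 7.14 in control and 2.92, 2.90 and 2.79 in GFP- cells (2.24 above GFP-, adjusted p = 0.0217). That call was lost without any 1 array other than PAX3-FKHR GFP+ replicate 3 (adjusted p 0.0549 to 0.0888). Olig1 was higher by 1.05 (adjusted p = 0.00647) and Olig3 by 0.65 (adjusted p = 0.0343), the latter lost without PAX3-FKHR GFP+ replicates 2 or 3 or GFP- replicates 2 or 3 (adjusted p 0.0897 to 0.115). Zic5 went the other way, at 5.17, 4.48 and 4.12 against 7.53, 7.54 and 7.57 (-2.96 ± 0.24, adjusted p = 4.58e-04). Control GFP+ cells read 5.21, 4.83 and 3.97 for Zic5, as low as the fusion-carrying cells.

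Most crest and neuronal genes did not pass, and more were higher than lower among those that did. Of 27 listed genes of neural crest and glia 24 were measured, with 8 called higher, 3 lower and 13 neither (4.23% and 3.06% of all genes were higher and lower), and a median of 0.47. The list mean was 6.57, 6.88 and 6.26 with the fusion, 6.75, 7.02 and 6.22 in control and 5.77, 5.84 and 5.93 in GFP- cells. Sox10, the defining factor of crest and Schwann cell precursors, read 7.46, 8.33 and 7.33 against 6.32, 6.45 and 6.18 (1.39, adjusted p = 0.015). That call was lost without GFP- replicate 1 or 2 (adjusted p 0.0581 and 0.0571), and only 1 of its 3 probe sets was higher. Fabp7, of glial precursors, was higher by 2.37 and Ngfr, the p75 receptor of crest, by 1.33. Erbb3, which crest and myogenic cells share, was higher by 3.83. Of 42 listed neuronal genes 40 were measured, with 10 called higher, 3 lower and 27 neither, and a median of 0.19. The neurofilament genes Nefm and Nefl led them, Nefm at 7.34, 8.19 and 7.18 with the fusion against 3.60, 3.71 and 3.86 (3.85, adjusted p = 1.45e-04) and Nefl higher by 3.52 (adjusted p = 1.69e-04). Control cells overlapped with them for Nefm (7.18, 7.32 and 7.31). The 3 neuronal genes called lower were Snap91 (-1.52, adjusted p = 0.00128), Ebf1 (-1.01, adjusted p = 0.00664) and Ebf2 (-0.61, adjusted p = 0.0468). Snap91 and Ebf1 averaged 6.15 and 6.08 in control cells and 6.37 and 6.01 in GFP- cells. Their differences from control, -1.3 and -1.08, did not pass (adjusted p = 0.227 and 0.376). The Ebf2 call was lost without any 1 array other than GFP- replicate 3 (adjusted p 0.0917 to 0.164). Tfap2a, Tfap2b and Kit were the 3 crest genes called lower, all of which ectoderm, limb mesenchyme or blood also express. The Tfap2a call (-1.18, adjusted p = 0.0335) was lost without any 1 of the 6 arrays (adjusted p 0.051 to 0.117) and that of Kit (-0.85, adjusted p = 0.0158) without PAX3-FKHR GFP+ replicate 3 or GFP- replicates 1 or 2 (0.0545 to 0.0667). The part of crest or nerve cells in the gate in these results was not tested.

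Genes of sclerotome and cartilage moved both ways. Of 28 listed genes 26 were measured, with 3 called higher, 7 lower and 16 neither (4.23% and 3.06% of all genes were higher and lower), and a median of -0.01. Uncx, a homeobox factor of the posterior somite and sclerotome, read 7.13, 7.90 and 8.60 with the fusion, 5.97, 5.23 and 7.19 in control and 3.28, 3.47 and 3.71 in GFP- cells (4.39 ± 0.33, adjusted p = 2.88e-04). The difference from control was 1.75 and did not pass (95% interval 0.53 to 2.97, adjusted p = 0.517). Tcf15 (paraxis), a bHLH factor of the epithelial somite and dermomyotome, read 9.08, 9.29 and 9.89 against 6.62, 6.81 and 6.37 in GFP- cells (2.82, adjusted p = 3.92e-04), and Foxd1 was higher by 1.24 (adjusted p = 0.01). By contrast Pax1, the defining sclerotome factor, read 5.04, 5.08 and 5.31 against 7.40, 7.12 and 6.48 (-1.86, adjusted p = 0.00266). Col9a1 (-2.07), Jag1 (-1.73) and Sox6 (-1.35) were lower in the same way. Sox9, the chondrogenic factor (-1.06, adjusted p = 0.0165), and Col2a1 (-1.39, adjusted p = 0.0168) were lower as well, calls lost without some single arrays (PAX3-FKHR GFP+ replicates 2 and 3 and GFP- replicate 2 for both, GFP- replicate 1 for Sox9 and PAX3-FKHR GFP+ replicate 1 for Col2a1), with adjusted p of 0.0508 to 0.0735.

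FGF signalling, which controls the balance of proliferation and differentiation of muscle progenitors, was examined over its ligands, receptors and targets. Of 37 listed genes 36 were measured, with 8 called higher, 3 lower and 25 neither (4.23% and 3.06% of all genes were higher and lower), and a median of 0.09. Among ligands, Fgf5 read 7.55, 7.26 and 6.65 with the fusion, 4.92, 5.22 and 4.43 in control and 2.58, 2.83 and 3.32 in GFP- cells (4.25 above GFP-, adjusted p = 1.10e-04; 2.30 above control, adjusted p = 0.0287). Fgf12, an intracellular FGF homologue, was above both by 1.58 and 1.26 (adjusted p = 3.79e-04 and 0.0187), on all 3 of its probe sets. Fgf9 was higher than in GFP- cells by 1.42 (adjusted p = 0.00167), with control cells at 7.90 to 8.30 against 7.37 to 7.69. Fgf18 was lower (-1.03, adjusted p = 0.0106).

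Among the receptors, Fgfr4 was higher, as given above. Fgfr2 and Fgfr3 were lower by 1.17 and 0.71 on the log2 scale (log2 fold changes -1.17 and -0.71, adjusted p = 0.0305 and 0.0284), calls lost without any 1 array other than PAX3-FKHR GFP+ replicate 1 (adjusted p 0.0513 to 0.118). Fgfr1 read 7.35, 7.97 and 8.49 against 9.97, 8.75 and 8.85 and did not pass (-1.25, adjusted p = 0.0891). Among targets and modulators, Egr2 (Krox20) read 7.16, 7.17 and 7.52 with the fusion, 4.86, 4.71 and 5.21 in control and 3.56, 4.0 and 3.66 in GFP- cells (3.54 above GFP-, adjusted p = 3.61e-05; 2.36 above control, adjusted p = 0.00477). Dusp4, a phosphatase of ERK, was higher by 1.86 and Sulf1, a heparan sulphate sulphatase, by 1.58, and neither passed against control (95% intervals -0.66 to 0.04 and 0.36 to 1.22). Flrt1, a transmembrane partner of FGF receptors, was higher by 2.26 (adjusted p = 0.00128). Spry1, the feedback inhibitor, read 8.49, 9.03 and 8.95 against 8.66, 8.55 and 8.57 in GFP- cells (0.23, adjusted p = 0.448).

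Markers of fusion-positive rhabdomyosarcoma were looked at because the same fusion drives that tumour. Of 29 listed genes 28 were measured, with 7 called higher, 3 lower and 18 neither (4.23% and 3.06% of all genes were higher and lower), and a median of 0.10. Those higher included Myog, Myod1, Met, Fgfr4 and Cxcr4. In control GFP+ cells all but Fgfr4 lay above every GFP- array, while Fgfr4 read 7.24, 7.41 and 5.38 there against 4.74, 3.97 and 5.46 in GFP- cells. Pipox, a sarcosine oxidase, read 6.45, 6.13 and 6.70 with the fusion, 4.58, 4.65 and 4.20 in control and 3.82, 3.86 and 3.99 in GFP- cells (2.54 above GFP-, adjusted p = 1.08e-04; 1.95 above control, adjusted p = 0.0133). Skp2, an F-box protein of the cell cycle, was higher by 0.87 (adjusted p = 0.0228), a call lost without PAX3-FKHR GFP+ replicates 1 or 2 or GFP- replicates 1 or 2 (adjusted p 0.0795 to 0.0994). Mycn, often amplified in the tumour, read 9.77, 9.98 and 9.79 against 9.77, 9.90 and 9.77 (0.03, adjusted p = 0.898). The 3 genes of the list called lower were Tfap2b (-1.10, adjusted p = 0.0058), Epha4 (-1.46, adjusted p = 0.0195) and Asb4 (-0.55, adjusted p = 0.0226). Calls of Epha4 and Asb4 were lost without several single arrays (adjusted p 0.0681 to 0.0907 and 0.0547 to 0.101).

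Of 31 factors that the study names for the forelimb, 29 were measured, with 17 called higher and 2 lower than in GFP- cells (4.23% and 3.06% of all genes were). Because the study picked these factors from the same arrays, their count does not stand as independent evidence of a direction. Besides those above, Myocd, the cofactor of serum response factor in smooth and cardiac muscle, read 5.03, 5.75 and 5.82 with the fusion against 3.54, 3.52 and 3.96 (1.86, adjusted p = 0.00243), with control at 3.99, 4.12 and 4.27 (1.40, adjusted p = 0.0658). The glucocorticoid receptor gene Nr3c1 was higher by 0.93 (adjusted p = 0.01). Dlx5, a distal-less factor of the ectodermal ridge, read 6.27, 6.74 and 6.81 against 5.30, 5.53 and 5.82 in GFP- cells (1.06, adjusted p = 0.0149) and was 1.49 above control (adjusted p = 0.0299). The first of these calls was lost without PAX3-FKHR GFP+ replicates 2 or 3 or GFP- replicates 1 or 2 (adjusted p 0.0582 to 0.0677). Tbx3 did not pass (-0.62, adjusted p = 0.0924), and 1 of its 5 probe sets was called higher.

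The remaining genes of largest change lay outside these lists. Car3, a carbonic anhydrase of muscle, read 10.57, 10.43 and 9.86 against 4.20, 4.26 and 4.68 (5.90 ± 0.22, adjusted p = 3.28e-05), with control at 8.91, 8.01 and 7.96. C1qtnf3, a secreted C1q and TNF related protein, read 9.39, 9.22 and 8.60 against 2.85, 2.43 and 4.05 (5.96 ± 0.40, adjusted p = 1.60e-04), and Sowahb, an ankyrin repeat protein, was higher by 5.16 (adjusted p = 3.61e-05). Among genes that were lower, Frzb and Wif1, secreted Wnt inhibitors, changed by -2.93 and -2.57, and Mab21l2 by -2.48. Mpo, the myeloperoxidase of granulocytes, read 4.79, 4.89 and 4.62 against 7.71, 7.76 and 7.41 (-2.86 ± 0.14, adjusted p = 4.92e-05). A share of 39.5% of the probe sets called lower carried no gene symbol, compared with 5.76% of those called higher and 20.3% of all tested.

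Markers of the other cell types that a limb sort could hold were mostly not called. Over all genes, 4.23% were called higher and 3.06% lower, and 1 call among 23 heart or 19 endoderm genes is near these shares. Of 40 ectoderm and epithelium genes, 6 were lower, among them Krt8 (-1.63) and Esrp1 (-1.79), 1 was higher (Dlx5) and 33 were neither. These 6 calls were each lost without 3 or more of the single arrays, and the whole list ran at 5.05, 4.88 and 4.87 with the fusion and 5.09, 5.50 and 5.77 in GFP- cells. Without GFP- replicate 1, the lowest of these GFP- arrays, 14 ectoderm genes were called lower, among them Cdh1 (adjusted p = 0.0246) and Krt5 (0.0375). Without any 1 of the other arrays, the ectoderm count was 0 to 5. Of 34 endothelial genes 3 were lower, led by Lmo2 (6.62, 6.90 and 6.20 against 8.84, 8.89 and 8.87), which limb mesenchyme also expresses. Kdr and Pecam1, defining endothelial markers, did not pass (0.55 and 0.00). Of 30 measured genes of blood and macrophages 2 were lower, Klf1 and Nfe2, both lost without several single arrays, with list means of 6.04, 6.66 and 5.48 with the fusion against 6.08, 7.18 and 7.67. Without GFP- replicate 1, the array low in globin, 9 blood genes were called lower, among them Hba-x (adjusted p = 0.0152), Hbb-bh1 (0.0342), Alas2 (0.0119), Gata1 (0.0133) and Rhag (0.0242). Without any 1 of the other arrays the count was 0 to 3. Of 23 heart genes 1 was higher (Actc1) and 1 lower (Gata6, -1.21), and of 19 genes of liver and gut endoderm 1 was higher, Rbp4 (0.63, lost without any 1 array, adjusted p 0.0541 to 0.111). Of 18 smooth muscle and pericyte genes 5 were higher, with Acta2, smooth muscle actin that early myoblasts also express, at 10.61, 10.64 and 9.91 against 6.73, 6.59 and 8.23 (3.20, adjusted p = 0.00378), and Pdgfrb and Tbx2 were lower (-1.55 and -2.54). The part of these cell types in the results above was not tested.

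**Figure D5:**
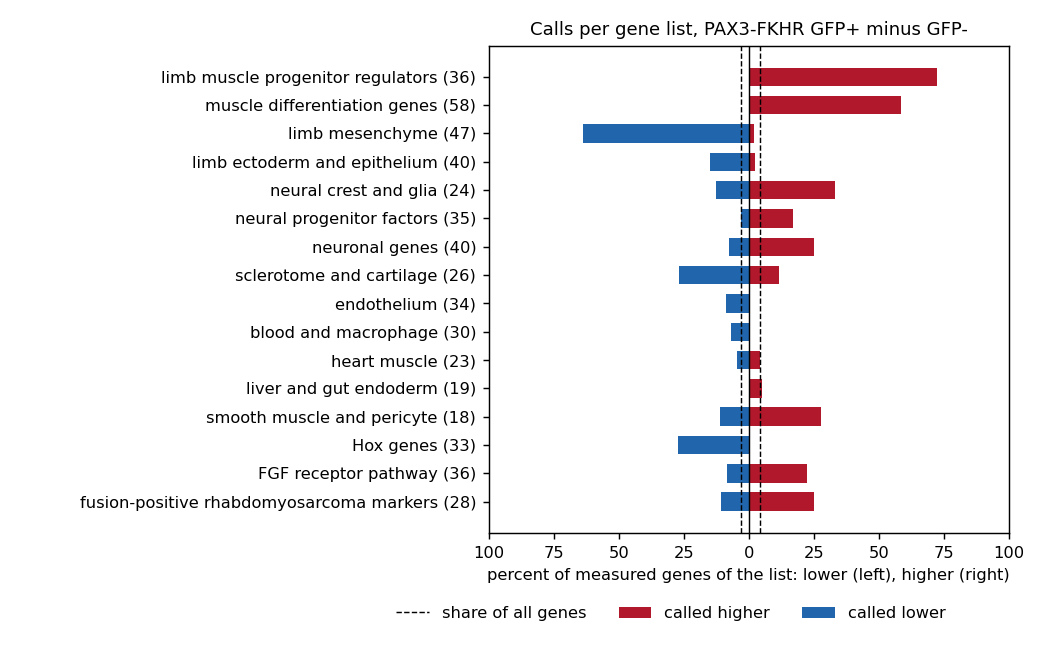
Share of the measured genes of each list (number in brackets) that were called higher (bars to the right) or lower (bars to the left) in PAX3-FKHR GFP+ than in GFP- cells, in percent, with dashed lines at the shares of all genes, 4.23% and 3.06%. Muscle lists extend far to the right and limb mesenchyme far to the left, with Hox genes and the sclerotome list next on the left.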

How the data were processed

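Cells were dissociated from pooled E10.5 forelimb buds, sorted by GFP with gates set on wild-type cells, and their RNA was amplified in a two-cycle protocol and hybridised to Affymetrix Mouse430_2 arrays. The authors deposited 1 table of log2 values normalized by RMA (version not given in the sources used here), which quantile normalizes the arrays to each other, so that a global shift between groups cannot be seen. The filter that the study applied to absent calls was not repeated.

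PAX3-FKHR GFP+ and GFP- arrays were grouped by their titles and compared with limma 3.58.1 in R 4.3.3 (eBayes with an intensity trend), with Benjamini-Hochberg adjustment over all 45037 probe sets. A probe set was called at an adjusted p under 0.05 and a log2 fold change of at least 0.5, the study's thresholds, with limma in place of its local pooled error test, which served as an alternative. The same model compared PAX3-FKHR GFP+ with control GFP+ cells. Of the probe sets, 34945 had 1 gene symbol, 932 several and 9160 none, and a gene was read from its brightest probe set with 1 symbol. Other probe sets of a called gene were not always called. Only 1 of 3 was called for Hand2, Ngfr, Chrng and Acta2. Only 1 of 2 was called for Myod1, Sim2, Zic1, Pax1, Lmx1b, Msx2, Hoxa5, Hoxa10, Erbb3 and Skor1, among others. Genes were named by rule: the 4 lead genes, Pax3 and Foxo1, the forelimb factors the study names, the 10 largest changes in each direction, and, in each list, at most 6 genes by smallest adjusted p together with those called against their list's direction. Others, including Entpd3, Tenm2, Coch, Pkp2, Hoxb5os and Tacr3, were named after their values were seen. Members and lists were chosen with earlier results of these data known, and some listed genes are not reported here. Other centring, normalization, variance, filter, threshold, probe set and test settings and the omission of each array were tried. The model was tested on simulated data made from this comparison over 45037 probe sets: limma recovered 72 of 100 changes of log2 1 and 96 of 100 of log2 2, with 6 false calls. The simulated noise was independent between probe sets, and far fewer probe sets were changed than were called here. These rates may therefore differ on the real arrays. Precision is limited by the 3 arrays per group, for which a two-sided exact permutation test of a single gene cannot go below p = 0.1.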

Additional observations from a re-analysis of the deposited data

How the results depend on the processing

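The counts of called genes among muscle progenitor regulators, muscle differentiation genes and limb mesenchyme stayed within 1.5 times their values under every alternative run. With a log2 fold change of at least 1, 655 probe sets were higher and 1070 lower. Leaving out 1 array at a time gave 808 to 1374 probe sets higher and 1007 to 1827 lower. The counts moved by over 1.5 times without PAX3-FKHR GFP+ replicate 2 (810 and 1014), GFP- replicate 1 (846 and 1177) or GFP- replicate 2 (808 and 1179), and the lower count also without PAX3-FKHR GFP+ replicate 3 (1007). By list, leaving out 1 array gave 25 to 27 muscle progenitor regulators, 25 to 36 differentiation genes, 26 to 31 mesenchyme genes, 4 to 5 neural progenitor factors (6 with all arrays) and 0 to 14 ectoderm genes (6 with all arrays). Ectoderm genes called lower numbered 13 with the local pooled error test, and 14 with limma without GFP- replicate 1. On the simulated data, whose noise and share of changed probe sets differ from those of the arrays, the local pooled error test made 284 false calls and limma 6. Neural progenitor factors called higher numbered 2 among probe sets above the median on 3 arrays and 1 among those with a mean of at least 5. Both settings drop probe sets at low levels, and 27 of the 35 measured factors had a mean under the array median. The cause of the other changes was not tested.

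With the replicate number as a block, 1068 probe sets were higher and 1872 lower, 2 ectoderm genes were lower, and 14 of 159 called named genes lost their call. Deviations of same-numbered arrays correlated at -0.237, 0.155 and -0.288, and not every array correlated best with its own number, so the arrays were taken to share only a number.

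Genes that changed sign were all not called. The log2 fold change of Meox2 (-0.01) was 0.00 after median centring, 0.02 after quantile normalization, 0.01 with array weights and -0.11 to 0.08 without 1 array. That of Fgf10 (0.00) was -0.05 with array weights and -0.06 to 0.08 without 1 array. That of Pecam1 (0.00) was -0.03 after quantile normalization, -0.03 with the local pooled error test and -0.06 to 0.05 without 1 array. Meis2 (0.10) went to -0.01 with the local pooled error test and -0.31 over the mean of all its probe sets, Tbx3 (-0.62) to 0.21 over that mean, and Myl7 (-0.39) to 0.29 with the local pooled error test and -0.75 to 0.28 without 1 array. Mycn (0.03) ran from -0.03 to 0.07 without 1 array.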
